A study of Homo sapiens with 42 samples.

Results

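The regions described here were the most accessible sites away from promoters in untreated cells of 4 lung adenocarcinoma lines that carry a mutated EGFR: PC9, H1975, HCC827 and HCC2935. For each line, the annotated regions whose nearest transcription start lay more than 3 kb away were ranked by the mean CPM (counts scaled to the library's total) of the 3 control libraries, and the top 1000 were kept. In the order PC9, H1975, HCC827 and HCC2935, these 1000 members were drawn from 33724, 41034, 14338 and 36139 such regions and from whole tables of 502962, 496892, 350366 and 361905 regions. The assay was ATAC-seq, whose transposase cuts and tags open chromatin, with 42 libraries in 14 groups of 3. Control cells were kept drug-free for 21 days and then given the solvent DMSO for 3 days. Drug tolerant persister (DTP) cells were the cells left after 24 days of 500 nM osimertinib, an inhibitor of mutant EGFR. In the sequential combination (combo), 21 days of 500 nM osimertinib were followed by 3 days of 150 nM AZD5153, a bivalent inhibitor of BET bromodomains. PC9 and H1975 had a group more, given AZD5153 alone at 150 nM for 3 days after 21 drug-free days. The sources did not say whether osimertinib was kept on during those last days of the combo, and one protocol text described a histone ChIP although titles and files gave ATAC-seq.

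Open regions far from promoters are mostly enhancers, stretches to which transcription factors bind and from which they act on genes that can lie many kilobases away. The most accessible of them in a cell tend to lie near genes that define its type and its active signals. In epithelial tumour cells driven by EGFR these are commonly sites of AP-1, a factor that ERK signalling turns on downstream of the receptor, and of TEAD, the DNA-binding partner of YAP. BET proteins read acetylated histones and are enriched at strong enhancers, from which BET inhibitors displace them. A region is named below by the gene symbol that the submitters' annotation gave it, which is that of the nearest transcription start and not a tested target.

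At 4 positions that were members in every line, the regions held a RefSeq promoter window (250 bases before to 50 bases after an annotated start), and those windows are printed to show what such a sequence looks like (GRCh38.p14, from RefSeq, 5′ to 3′ on the plus strand). Capitals mark matches, on either strand, to an AP-1 motif (TGANTCA), a TEAD motif (GGAATG) or a core of the CTCF motif (CC, 3 free bases, AG, 2 free bases and GGC); none of the matches shown overlap. The first window, chr14:102524570-102524869, held a CTCF match and no AP-1 or TEAD match. The second, chr1:161083576-161083875 in an intron of NECTIN4, held an AP-1 and a TEAD match. The third, chr22:39292631-39292930 near RPL3, held an AP-1 match, and the fourth, chr9:86127290-86127589 near GOLM1, held none of the motifs.
LOC105370680: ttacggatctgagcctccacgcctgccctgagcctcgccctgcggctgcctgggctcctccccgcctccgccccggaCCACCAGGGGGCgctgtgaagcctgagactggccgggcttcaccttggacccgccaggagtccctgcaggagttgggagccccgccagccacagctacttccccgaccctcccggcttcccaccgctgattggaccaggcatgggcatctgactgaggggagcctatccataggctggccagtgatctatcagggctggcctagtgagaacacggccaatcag
NECTIN4-AS1: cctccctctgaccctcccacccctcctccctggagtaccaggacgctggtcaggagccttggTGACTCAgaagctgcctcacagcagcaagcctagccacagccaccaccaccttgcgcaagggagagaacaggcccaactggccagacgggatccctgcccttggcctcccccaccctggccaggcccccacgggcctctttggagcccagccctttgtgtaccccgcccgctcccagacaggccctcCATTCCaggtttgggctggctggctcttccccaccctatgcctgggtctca
LOC124905119: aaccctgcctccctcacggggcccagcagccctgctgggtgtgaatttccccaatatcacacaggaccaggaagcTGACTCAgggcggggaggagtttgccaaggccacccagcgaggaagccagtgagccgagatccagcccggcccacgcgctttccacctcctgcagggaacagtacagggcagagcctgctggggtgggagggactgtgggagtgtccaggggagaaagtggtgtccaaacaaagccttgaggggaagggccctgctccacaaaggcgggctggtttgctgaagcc
LOC101927623: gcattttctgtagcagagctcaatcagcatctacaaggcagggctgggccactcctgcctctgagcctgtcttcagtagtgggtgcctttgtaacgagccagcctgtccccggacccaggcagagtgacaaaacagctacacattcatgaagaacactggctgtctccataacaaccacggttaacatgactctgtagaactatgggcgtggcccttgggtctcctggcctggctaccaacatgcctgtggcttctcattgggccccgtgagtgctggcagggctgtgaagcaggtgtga

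The submitters' annotation placed the first of these 14.6 kb from MIR4309, while RefSeq has the start of LOC105370680 inside the region, so a region beyond 3 kb in the table could still be a promoter in a fuller annotation. Per line, in the same order, 72, 69, 54 and 69 of the 1000 members lay within 3 kb of a RefSeq start, against 4.59%, 4.46%, 4.89% and 4.23% of all regions called distal. Over the 4 lines, 53 RefSeq windows of 300 bases lay wholly inside a member. An AP-1 match was found in 16 of the 53 (30.2%), against 2707 of all 35116 windows (7.71%). A TEAD match was found in 11 (20.8%, against 14.0%) and a CTCF match in 7 (13.2%, against 10.6%). The windows are a small part of the members, and a match of letters does not show that a factor was bound.

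The members were several times more open than the typical distal region and lay in introns about as often. Each was 502 bases wide. Median control signal over the members was 36.3, 42.0, 29.6 and 36.8 CPM for PC9, H1975, HCC827 and HCC2935, and over all distal regions it was 5.59, 5.84, 9.60 and 5.76. The rule's threshold fell within a smooth slope: the last region inside it and the first outside stood at 29.05 and 29.04 CPM in PC9, 33.32 and 33.31 for H1975, 23.86 and 23.85 for HCC827, and 29.39 and 29.38 for HCC2935. Introns held 480 to 520 members a line (48.0% to 52.0%, against 49.4% to 53.7% of all distal regions), intergenic sequence 382 to 414 and exons 68 to 86. In every control library, all members overlapped a peak that the submitters called in that library. Nearly all still did after treatment: at least 99.8% in each persister library of PC9, H1975 and HCC2935 and 94.2% to 99.8% in HCC827, at least 98.3% in each AZD5153 library, and at least 97.9% in each combo library outside HCC827, where it was 87.4% to 99.5%. The falls given below were thus mostly in the signal of sites that remained called as peaks. The smallest control count of a member was 101 reads for PC9, 227 for H1975, 18 for HCC827 and 70 for HCC2935, and every member passed the filter on low counts.

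**Figure D1:**
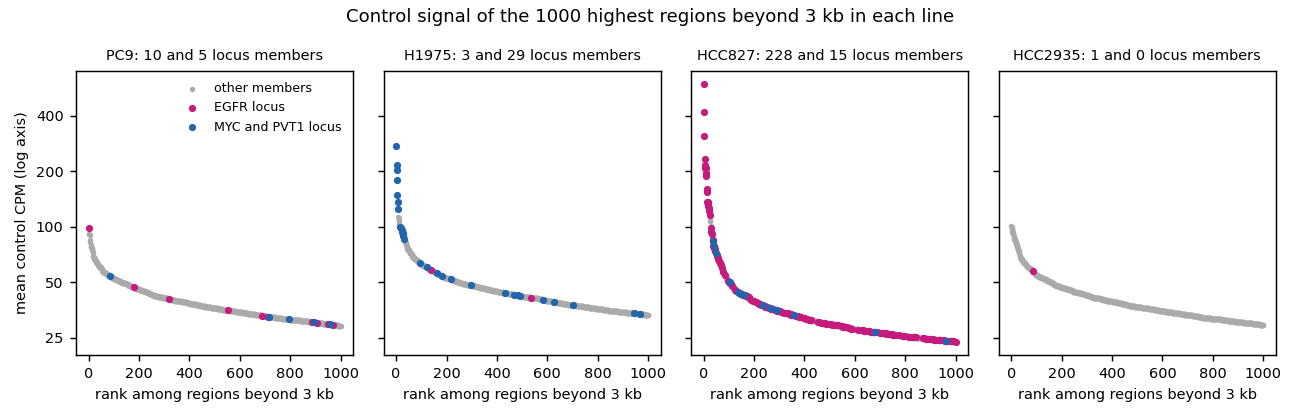
Mean control CPM (log axis) of the 1000 members of each line against rank, with members of the EGFR window of chr7 and the MYC and PVT1 window of chr8 coloured; each point is a region. The curves of PC9, H1975, HCC827 and HCC2935 start at 98.9, 273.2, 598.3 and 101.2 CPM and end at 23.86 to 33.32 CPM, and the 228 EGFR members of HCC827 run along its whole curve.

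Library totals ran from 3989287 to 5193390 counts for PC9, 6200672 to 10062505 for H1975, 1724680 to 4242868 for HCC827 and 3968690 to 8066287 for HCC2935. Promoter regions were open at 8 of 8 epithelial markers in each line and no promoter region was listed at the blood markers CD3E, PTPRC and SPI1. Of 6 lung lineage markers, 3 to 5 had such a region, with the surfactant gene SFTPC lacking one in every line, as had 0 to 2 of 2 endothelial and 1 or 2 of 3 fibroblast markers. Replicate libraries were unusually alike in PC9 and H1975: over the members, 11 of 12 and 6 of 12 pairs of replicates differed by no more than sampling noise, so a second fit counted each group of those lines as 1 summed sample, and its counts stand beside those of the main fit for most sets of members. For the EGFR family, MYC-linked and noncoding RNA lists and for each symbol by name, only main-fit counts are given. Of the single values named by rule, 17 lost their call in that fit. Nothing in the labels said that replicates were separate cultures, so p-values measure the spread between libraries, which may be technical. In HCC827 the libraries of replicate 3 stood apart and same-numbered libraries deviated together, so a second fit took the replicate number as its block, and its values are given where it changed a count or a call. A lower value in bulk chromatin may be fewer cells with an open site or less opening per cell, and these cannot be told apart.

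The very strongest members lay near genes of several kinds in PC9 and HCC2935 and, in the other 2 lines, at a single locus. In PC9 the first was in intron 1 of EGFR (chr7:55132821-55133322), the receptor that osimertinib inhibits, at 108, 99.4 and 96.1 normalised CPM in the control libraries. It was followed by regions near CD9, a tetraspanin of the cell surface, MIR4309, DYNC1H1, the heavy chain of the dynein motor, and P3H2, a collagen prolyl hydroxylase. In HCC2935 the leading symbols were MICALL2, TCF20, SDC1, MIR4309 and CYP24A1, where SDC1 codes for syndecan-1, a surface proteoglycan, and CYP24A1 for the enzyme that breaks down active vitamin D. In H1975 the top 5 all lay at PVT1, CASC11 and MIR1208, noncoding genes that flank MYC. In HCC827, 4 of the top 5 were annotated to EGFR or its neighbour VOPP1 and the other to SEC61G, all on chr7 within the same 2-Mb window.

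Clustering set HCC827 and, less so, H1975 apart from the other lines. Members at most 12.5 kb apart formed 27 stretches of 3 or more in HCC827 with 271 members, against 10 to 14 such stretches with 30 to 46 members elsewhere. The longest ran over 160.1 kb of EGFR in HCC827 (chr7:55022422-55182526) and held 64 members. Between 54 and 56 Mb of chr7, a window chosen after the data were seen, HCC827 had 228 members (22.8%), which carried 31.3% of the members' control signal, while PC9 had 10, H1975 3 and HCC2935 1. The table of HCC827 also listed many regions there. From 50 to 60 Mb, chr7 held 23.1% of its members and 11.1% of its distal regions, against 1.3% and 0.383% in PC9. The window from 54 to 56 Mb took 4.37%, 4.49% and 2.83% of all counts in the HCC827 control libraries and 0.119% to 0.259% in the controls of the other lines. HCC827 is known for amplification of EGFR; copy number was not measured here and its part in these levels was not tested. In a 2-Mb window of chr8 around MYC and PVT1, also chosen after the data were seen, H1975 had 29 members (2.9%) with 5.61% of their signal. From 120 to 130 Mb, chr8 held 3.4% of the H1975 members and 1.74% of its distal regions.

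Persister cells were compared with control cells to ask what happens to the strongest baseline sites when cells survive EGFR inhibition. In the main fit, most members were called lower in PC9, H1975 and HCC2935. In PC9, 691 members fell and 32 rose by edgeR's quasi-likelihood test (adjusted p under 0.05), against a background of 16.4% lower and 15.4% higher over all 126506 tested regions, and 92 fell by at least 1 on the log2 scale. In H1975, 859 fell and 22 rose (27.0% and 24.9% of 191202), and 326 fell by at least 1. In HCC2935, 609 fell and 42 rose (18.6% and 18.7% of 154179), and 162 fell by at least 1. The median log2 fold change of the members was -0.37 in PC9 (quartiles -0.62 and -0.16), -0.64 in H1975 (-1.21 and -0.31) and -0.41 in HCC2935 (-0.79 and -0.14), whereas that of all tested regions was 0.01, 0.02 and -0.01.

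In HCC827 the spread between replicates left little to call. Its members had a median of -0.25, with 3 lower and 1 higher (backgrounds 0.00607% and 0.0158% of 82309 regions), while 138 had an unadjusted p under 0.05. With the replicate block, 120 fell and 11 rose (1.72% and 2.16%), with a median of -0.31. The 1 region that rose without the block lay 75.1 kb from ADTRP (chr6:11652947-11653448): its control libraries stood at 56.7, 47.2 and 35.9 CPM and its persister libraries at 171, 188 and 224, a log2 fold change of 2.06 (SE 0.23, adjusted p = 0.045 by edgeR). It lay in a stretch of 28 members on chr6, 10 to 13 Mb, whose median was 0.05. The deepest called falls were at regions annotated to HHAT (-4.00, adjusted p = 0.0497, and 4.36e-05 with the block) and GPC1 (-3.47, adjusted p = 0.046, and 2.97e-05). The smallest of the 3, the exon of the noncoding gene CASC11 at chr8:127668734-127669235, went from 70.7, 65.8 and 115 CPM to 12.6, 10.9 and 10.9 (-2.87, adjusted p = 0.0497). The persister libraries lay outside the control range at both ADTRP and CASC11. With the block their adjusted p was 2.4e-05 and 1.06e-05, but without it both calls ended when any control library or persister replicate 1 or 2 was left out (adjusted p up to 0.45 for each) and when regional medians were removed (0.145 and 0.0713).

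Control libraries both chose the members and entered this comparison, so a choice on noise could by itself give falls. Members were therefore also chosen on 1 control library and tested against the others. This takes out only noise that differs between control libraries. The labels did not give replicates as separate cultures, so a deviation common to all control libraries of a line would remain. Of 1000 so chosen, 639 to 658 fell in PC9, 828 to 861 in H1975 and 511 to 587 in HCC2935, and none was called in HCC827 (median -0.15, -0.08 and -0.01). With each PC9 and H1975 group counted as 1 summed sample, the members that fell numbered 283 in PC9 (background 9.79%) and 617 in H1975 (21.8%), with 1 and 5 that rose (9.6% and 18.4%). HCC2935, summed likewise, had 400 falls and 9 rises (16.6% and 16.3%). High counts also make a call easier: the next 1000 regions in rank gave 627 falls in PC9, 821 in H1975 and 536 in HCC2935, close to the counts for the members. The top 1000 promoter regions, also strong in control cells, gave 247 falls and 89 rises in PC9 (median -0.04), 705 falls and 27 rises in H1975 (-0.26) and 362 falls and 30 rises in HCC2935 (-0.13). The difference between the members and the promoters was not tested.

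The share of each library's counts that lay in the members was also read. It sums the same counts, and the control libraries had chosen the members, so it is a description and no second test. In PC9 it was 3.93% ± 0.11 in control libraries (SD, n = 3) and 3.09% ± 0.04 in persisters. In H1975 it went from 4.68% ± 0.13 to 3.298% ± 0.12, and for HCC2935 from 4.07% ± 0.25 to 3.23% ± 0.10, with no overlap between the groups in these 3 lines. HCC827 went from 3.76% ± 0.29 to 3.33% ± 0.44; the groups overlapped, while the share fell by 0.649, 0.405 and 0.231 percentage points in the same-numbered pairs. The share in the top 1000 promoter regions moved less, for example from 5.05% ± 0.04 to 4.93% ± 0.03 in PC9.

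**Figure D2:**
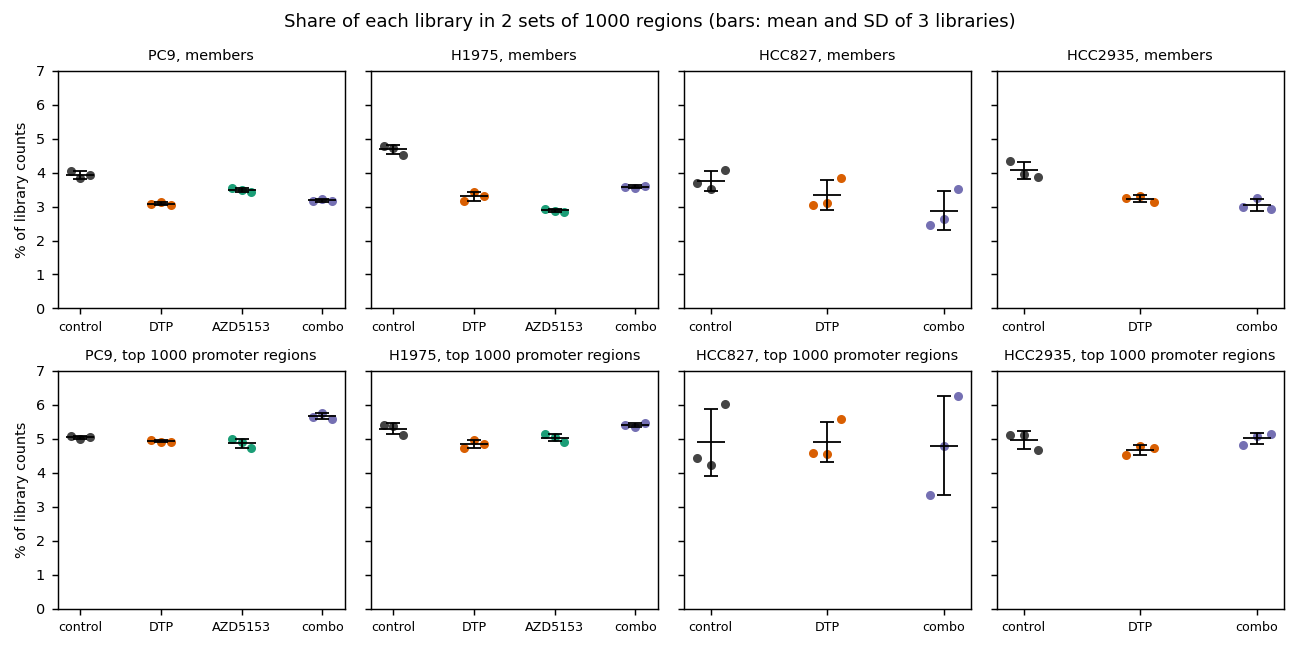
Percent of each library's counts in the 1000 members and in the top 1000 promoter regions, by line and group; points are libraries and bars are means of 3 with SD. Member shares fall from 3.93% to 3.09% in PC9, 4.68% to 3.298% in H1975 and 4.07% to 3.23% in HCC2935 between control and persister libraries.

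The regions that lost most lay near genes of many kinds. In H1975 the deepest loss was 9.1 kb from SLC25A13, the mitochondrial aspartate-glutamate carrier (chr7:96331204-96331705): 55.4, 54.6 and 45.2 CPM in control and 0.914, 1.62 and 0.8 in persister libraries, a log2 fold change of -5.51 (SE 0.15, adjusted p = 5.8e-98). A region 45.1 kb from ZNF729, a zinc finger gene, fell from 52.5, 54.4 and 44.4 CPM to 1.6, 1.32 and 1.3 (-5.16). In PC9 a region 4.5 kb from CSNK1E, a casein kinase (chr22:38289507-38290008), fell from 42.5, 41.3 and 39.8 CPM to 3.9, 5.38 and 3.81 (-3.23, SE 0.14, adjusted p = 1.34e-83). These sites were strong in every control library and stood in every persister library under the control level of the line's median distal region (5.84 CPM in H1975 and 5.59 in PC9). In HCC2935 an intron of SDC1 (chr2:20217533-20218034) fell from 46.1, 41.9 and 40.5 CPM to 3.69, 5.03 and 2.9 (-3.45, SE 0.17, adjusted p = 1.3e-19). An intron of ME3, a mitochondrial malic enzyme, fell from 49.8, 52.4 and 31.7 CPM to 5.46, 3.35 and 3.71 (-3.43).

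Rises were smaller and, in the main fit, few. Their number depended on the scaling. With offsets that follow signal strength (loess), 105 rose and 711 fell in H1975, and 47 rose and 602 fell in PC9. With library size alone, 90 rose and 728 fell in H1975, and 41 rose and 622 fell in PC9. In PC9 a region 16.6 kb from PLCXD3 rose from 32.4, 27.9 and 32.6 CPM to 43.8, 51.5 and 46.4 (0.61, SE 0.09, adjusted p = 1.79e-10). In HCC2935 an intron of VAV2, a guanine nucleotide exchange factor, rose from 34.0, 25.7 and 36.8 CPM to 59.2, 66.5 and 57.7 (0.93, SE 0.11, adjusted p = 6.85e-09). In H1975 an intron of PVT1 (chr8:128018734-128019235) rose from 35.6, 34.7 and 39.4 CPM to 73.0, 68.1 and 71.5 (0.95, SE 0.07). The groups did not overlap at any of these. The median over all tested regions of the same 10 Mb was 0.24 for PLCXD3, -0.14 for VAV2 and 0.41 for PVT1.

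AZD5153 alone was compared with control to ask how the same sites respond to BET inhibition without osimertinib. In H1975, 874 members fell and 43 rose (backgrounds 31.4% and 26.7%), with a median of -0.99 and 495 falls of at least 1 on the log2 scale. In PC9, 512 fell and 61 rose (14.6% and 11.2%), with a median of -0.23 and 68 such falls. Counted as summed samples, 745 fell and 14 rose in H1975 (27.3% and 20.9%), and 187 fell and 4 rose in PC9 (8.52% and 5.59%). Members chosen on 1 control library and tested on the others gave 872 to 886 falls in H1975 and 449 to 454 in PC9, with the limit of that choice given above. The share of counts in the members was 2.88% ± 0.05 in H1975 and 3.49% ± 0.06 in PC9 after AZD5153. The next 1000 regions in rank gave 420 falls and 82 rises in PC9 and 833 and 58 in H1975. The top 1000 promoter regions gave 338 falls and 22 rises in PC9 (median -0.12) and 577 and 168 in H1975 (-0.25). Differences between the lines and between these sets were not tested.

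The deepest AZD5153 losses also took members under the control level of the median distal region. In PC9 an intron of KLC1, a kinesin light chain (chr14:103655985-103656486), fell from 35.7, 34.2 and 26.9 CPM to 2.88, 3.72 and 2.63 (-3.36, SE 0.16, adjusted p = 2.99e-72), and a region 29.6 kb from C1orf116 fell from 33.1, 33.1 and 29.8 CPM to 4.99, 4.28 and 3.76 (-2.87). In H1975 an intron of EYA1, a transcriptional cofactor of development, fell from 38.1, 37.4 and 32.3 CPM to 0.922, 0.778 and 1.02 (-5.26), and an intron of ZNF730 fell from 50.6, 55.0 and 48.8 CPM to 1.15, 1.56 and 1.53 (-5.18). No treated library reached the control range at these 4 regions. In PC9 the region 29.6 kb from C1orf116 stood at 29.6, 26.9 and 22.9 CPM in persister libraries, and KLC1 at 16.2, 15.5 and 14.9.

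The MYC and PVT1 window of H1975 went against the other members. Of its 29 members, 14 rose and 11 fell with AZD5153, with a median of 0.09, whereas of the other 971 members 29 rose and 863 fell, with a median of -1.01. An intron of PVT1 (chr8:127899284-127899785) rose from 103, 105 and 109 CPM to 355, 393 and 345 (1.78, SE 0.05, adjusted p = 5.92e-94), and CASC11 (chr8:127668619-127669120) went from 241, 234 and 223 to 306, 320 and 286 (0.38). Over all 1290 tested regions of the window the median was 2.04. The window's share of all counts was 0.637% to 0.661% in control, 1.43% to 1.62% after AZD5153, 0.747% to 0.822% in persisters and 0.742% to 0.827% in the combo. Copy number of this window was not measured, and its part in the rise was not tested.

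The combo was compared with persisters to ask how sites already changed by osimertinib differ when AZD5153 is given in the last days. None of the libraries in this comparison had chosen the members. Because the sources did not say whether osimertinib was kept on in those days, AZD5153 and a possible stop of osimertinib cannot be separated here. The part of each in the combo values given below was not tested. In H1975, 504 members rose and 90 fell (backgrounds 11.5% and 9.48%), with a median of 0.20. In PC9, 283 rose and 226 fell (10.6% and 11.7%), with a median of 0.04. In HCC2935 falls were more frequent, with 228 lower and 14 higher (6.4% and 1.9%) and a median of -0.07. In HCC827 none was called either way (0.0% and 0.0%) at a median of -0.22, although 94 had an unadjusted p under 0.05; with the replicate block 6 fell and none rose (0.0304% and 0.0%).

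The balance in PC9 and H1975 depended on how libraries were scaled. With offsets that follow signal strength (loess), 89 rose and 352 fell in PC9 (median -0.12) and 151 rose and 286 fell in H1975 (-0.05). With library size alone, PC9 had 221 higher and 256 lower, and H1975 370 and 140. Counted as summed samples, 19 rose and 74 fell in PC9 (2.55% and 5.55%) and 27 rose and 24 fell in H1975 (2.34% and 3.63%), while 105 fell and none rose in HCC2935 (4.62% and 0.747%). The direction of the members as a whole in this comparison was thus not settled in these 2 lines, while in HCC2935 more fell than rose under each of these settings. The top 1000 promoter regions stood higher than the members, with 577 higher and 51 lower in PC9 and 727 and 29 in H1975. The share of counts in the members in combo libraries was 3.19% ± 0.04 for PC9, 3.58% ± 0.04 for H1975, 2.87% ± 0.57 for HCC827 and 3.05% ± 0.17 for HCC2935, and in PC9 and H1975 all 3 combo libraries lay above all 3 persister libraries.

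**Figure D3:**
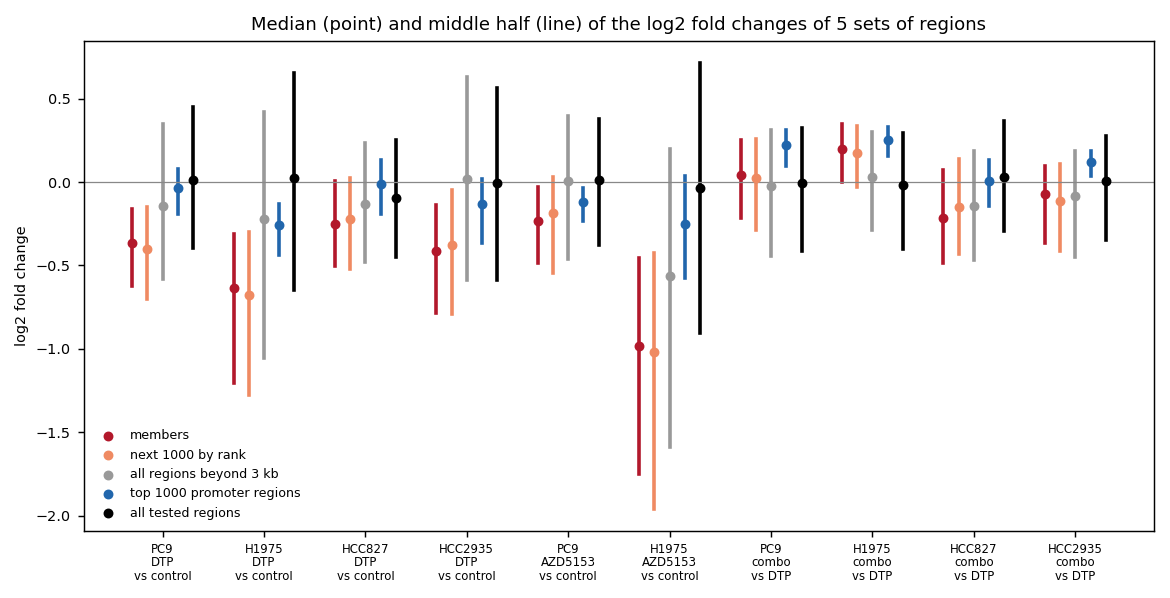
Log2 fold change in each line and comparison for the 1000 members, the next 1000 in rank, all regions beyond 3 kb, the top 1000 promoter regions and all tested regions; points are medians and lines run between the quartiles. Persister medians of the members are -0.37, -0.64, -0.25 and -0.41 in PC9, H1975, HCC827 and HCC2935, AZD5153 medians -0.23 in PC9 and -0.99 in H1975, and combo against persister medians lie between -0.22 and 0.20.

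Single members changed in both directions when AZD5153 followed osimertinib. In PC9 a region 8.9 kb from MICALL1, an endocytic adaptor, rose from 16.6, 16.1 and 16.5 CPM in persisters to 35.2, 32.1 and 34.0 (1.04, SE 0.11, adjusted p = 9.76e-18), against 33.1, 34.2 and 34.0 in control cells. A region near ZFP36L2, which promotes mRNA decay, rose from 14.8, 19.2 and 13.2 CPM to 28.6, 32.5 and 33.5 (1.00), against 30.3, 34.0 and 28.6 in control cells. The combo libraries thus overlapped the control libraries at both. In the other direction, KLC1 went from 16.2, 15.5 and 14.9 CPM to 1.56, 0.85 and 0.855 (-3.78, SE 0.26), and a region 10.9 kb from DDX47, an RNA helicase, from 26.3, 27.9 and 27.9 to 2.15, 4.68 and 4.49 (-2.87, SE 0.17).

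In H1975 an intron of MED6, a Mediator subunit, rose from 5.03, 5.88 and 4.5 CPM in persisters to 14.3, 11.1 and 14.1 (1.36, SE 0.14), against 46.8, 39.1 and 34.1 in control cells. At LOC100996664 the rise was from 16.9, 19.9 and 21.8 CPM to 46.9, 43.7 and 42.7 (1.18), above the control libraries at 38.8, 37.5 and 39.1. An intron of SRI, the calcium-binding protein sorcin, fell from 6.74, 6.69 and 6.1 CPM to 0.703, 1.34 and 0.905 (-2.71). In HCC2935 a region 54.2 kb from MPEG1 fell from 6.58, 6.57 and 9.68 CPM to 1.1, 1.95 and 1.53 (-2.26, SE 0.26, adjusted p = 5.09e-08), and one 7.6 kb from HSPB1, a small heat shock protein, rose from 22.3, 25.9 and 23.4 CPM to 36.0, 32.2 and 30.5 (0.46, adjusted p = 0.00562). The combo and persister libraries did not overlap at any of these regions.

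Some genes collected several of the strongest sites. Symbols with 3 or more members numbered 33, 30, 26 and 33 for PC9, H1975, HCC827 and HCC2935, and held 11.3%, 11.9%, 33.0% and 11.7% of the members. CUX1, a homeobox factor, and PRKAG2, a regulatory subunit of the energy sensor AMPK, reached 3 in all 4 lines. Both lie on chr7, which held 7.2%, 18.1%, 29.8% and 15.9% of the members in the same order of lines. Its shares of the distal regions were 5.98%, 7.39%, 16.1% and 9.05%. The part of this in the recurrence was not tested. All members of a symbol fell in persisters for 15 of 33 symbols in PC9, 15 of 30 in H1975 and 17 of 33 in HCC2935, and for no symbol did all rise. Most members fell in these lines in the main fit (69.1%, 85.9% and 60.9%), so a symbol whose few members all fell is not set apart by that. No symbol was tested against the other members. In HCC827 25 of 26 had no member called, and 13 with the replicate block. Counted as summed samples, all members fell for 1, 7 and 9 symbols of PC9, H1975 and HCC2935.

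In PC9 the symbols that fell throughout included HES1, the repressor that Notch induces (4 of 4 members, median -0.75), PRKAG2 (4 of 4, -0.65), CUX1 (4 of 4, -0.34) and EMP1, an epithelial membrane protein (3 of 3, -0.81). In H1975 they included PLB1, a phospholipase (4 of 4, -0.92), IER5, an immediate early gene (3 of 3, -1.27), LIF-AS1 next to the cytokine LIF (3 of 3, -0.69) and CUX1 (4 of 4, -0.34). In HCC2935 they included SDC1 (6 of 6, -1.50), MYEOV (4 of 4, -0.86), PRKCH, a protein kinase C (4 of 4, -0.77), and MPEG1 (3 of 3, -2.32). No regional shift was removed from these values. PRKCH lies on chr14, which held 11.8% of the HCC2935 members and 5.28% of its distal regions. CUX1 in HCC2935 had only 2 of 6 members lower, with a median of -0.10. The 6 SDC1 members of HCC2935 summed to 363, 324 and 319 CPM in control, 125, 123 and 119 in persister, and 122, 128 and 123 in combo libraries, so the persister and combo sums overlapped while both lay under every control sum.

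With AZD5153, all members fell for 17 of 30 symbols in H1975 and 3 of 33 in PC9 (CDC42BPB, PRKCE and IRF2BPL), and as summed samples for 13 and 0. These counts are to be read beside the share of all members that fell with AZD5153, 87.4% in H1975 and 51.2% in PC9. COBL, an actin nucleator, had 7 members in H1975, all lower with AZD5153 (median -2.02) and 6 lower in persisters (-1.10); they summed to 317, 309 and 293 CPM in control, 149, 157 and 160 in persister, 91.4, 89.0 and 84.0 in AZD5153, and 177, 168 and 168 in combo libraries. The 4 groups did not overlap. IER5 (3 of 3, median -2.47) and PRKCH (3 of 3, -2.46) also fell throughout with AZD5153 in H1975. Against persisters, the combo was higher at all members of IER2, an immediate early gene, in PC9 (3 of 3, median 0.61) and of 7 symbols in H1975, among them GADD45B, a stress-response gene (3 of 3, 0.53), and PLB1 (4 of 4, 0.47), and lower at all members of MPEG1 (3 of 3, -1.50) and SLC25A13 (3 of 3, -0.59) in HCC2935. Of all members, 28.3% rose in PC9 and 50.4% in H1975 in this comparison, and 22.8% fell in HCC2935. The combo rises throughout a symbol numbered 0 in PC9 and 1 in H1975 with loess offsets, and none of these combo calls throughout a symbol remained in the summed samples of any of the 3 lines.

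**Figure D4:**
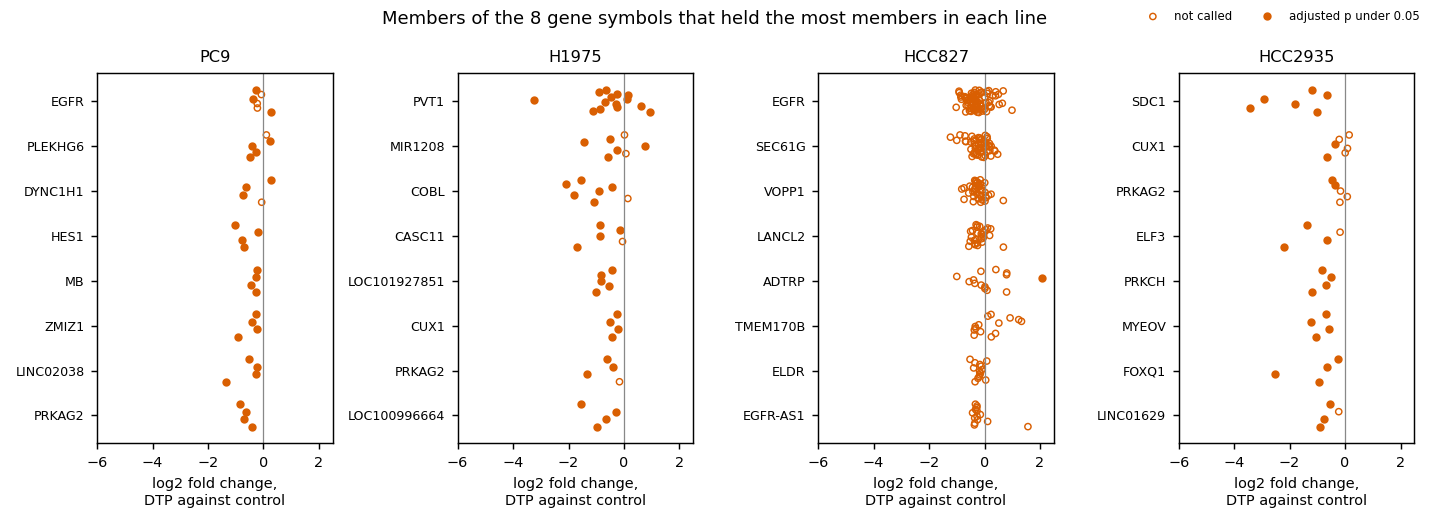
Log2 fold change (persister against control) of each member of the 8 symbols that held the most members in each line; each point is a region, filled where it passed the test (adjusted p under 0.05). The 4 members of HES1 in PC9 and the 6 of SDC1 in HCC2935 all lie below 0, while PVT1 in H1975 runs from -3.23 to 0.95 and EGFR in HCC827, with 79 members, from -1.02 to 0.99.

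Gene lists held few members each, and their counts are to be read beside the share of all members that fell in persisters, which was 69.1% for PC9, 85.9% for H1975 and 60.9% for HCC2935; no difference between a list and the other members was tested. At AP-1 factors and at early and feedback genes of ERK, which act downstream of EGFR, 5 of 8 members fell in PC9 (median -0.23, 2 as summed samples), 5 of 5 in H1975 (-0.81, 3 summed) and 4 of 7 in HCC2935 (-0.30, 2 summed), and none rose. The region 23.2 kb from DUSP6, an ERK phosphatase that ERK itself induces, fell in H1975 from 55.5, 57.0 and 50.1 CPM to 18.6, 22.7 and 21.9 (-1.36, adjusted p = 6.91e-43) and in HCC2935 from 53.9, 43.7 and 39.1 to 31.5, 27.5 and 29.3 (-0.65, adjusted p = 2.1e-05), with no overlap between the groups. In HCC827 it stood at 49.3, 46.3 and 67.8 CPM in control and 28.4, 25.1 and 46.9 in persister libraries (adjusted p = 0.905, and 0.0866 with the block); the groups overlapped, and each same-numbered pair was lower in persisters. AZD5153 took the H1975 site to 10.3, 10.4 and 10.4 CPM (-2.39).

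A site 19.4 kb from FOS, the AP-1 subunit, was a member in all 4 lines. It fell in persisters of H1975 (63.7, 65.4 and 52.0 CPM to 48.6, 52.7 and 48.0, -0.28) and of HCC2935 (72.5, 78.1 and 66.4 to 50.6, 50.5 and 54, -0.49), and stood at 65.9, 66.0 and 66.6 against 68.5, 71.6 and 74.4 in PC9 (-0.12, adjusted p = 0.163). The groups overlapped in H1975 and not in HCC2935. In HCC827 persisters it stood at 41.0, 28.4 and 51.9 against 23.3, 17.4 and 39.8 CPM (0.59, adjusted p = 0.864, and 0.153 with the block). Against persisters, 5 of the 8 AP-1 and ERK members of PC9 were higher in the combo and 1 lower (2 and 0 as summed samples), where 28.3% of all members rose; the region near LIF went from 55.9, 59.3 and 51.8 CPM to 85.5, 90.4 and 81.0 (0.62, adjusted p = 4.22e-18). Among EGFR family genes and ligands, 2 of 6 members fell and 1 rose in PC9 persisters, 2 of 3 fell in H1975, and 2 of 4 fell and 1 rose in HCC2935, where an intron of TGFA, an EGFR ligand, went from 53.9, 54.2 and 48.7 CPM to 25.5, 26.6 and 23.2 (-1.06), and an intron of MET, a receptor that can bypass EGFR, from 59.4, 50.2 and 56.9 to 69.0, 63.6 and 67.4 (0.26, adjusted p = 0.0234). None of the 80 such members of HCC827 was called (median -0.31), and 4 fell and 2 rose with the replicate block.

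Sites at YAP and TEAD factors and targets fell in 4 of 5 cases in PC9 persisters (1 as summed samples), 6 of 8 in H1975, where the other 2 rose (4 and 0 summed), and 2 of 2 in HCC2935 (0 summed). In H1975 a region near CCN1, a secreted matrix protein and standard YAP target (chr1:85598931), went from 42.1, 39.2 and 40.1 CPM in control to 11.2, 13.7 and 12.4 in persisters (-1.70, adjusted p = 2.05e-46), 17.5, 14.3 and 14.2 after AZD5153, and 24.3, 24.8 and 24.4 in the combo (0.97 against persisters, adjusted p = 7.68e-17). The combo lay between persister and control libraries, without overlap. In PC9 an intron of CRIM1 went from 32.9, 33.5 and 30.8 CPM in control to 14.0, 12.8 and 11.2 in persisters and 1.96, 1.91 and 2.14 in the combo (-2.65 against persisters).

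Epithelial keratin, laminin, integrin and junction genes lost signal at 8 of 11 members in PC9 persisters, 9 of 10 in H1975 and 4 of 8 in HCC2935, with none higher (3, 5 and 0 as summed samples). With AZD5153 the fall in H1975 took in all 10 (median -1.76, 10 summed), where 87.4% of all members fell, while 4 of 11 fell in PC9 (1 summed), where 51.2% did. The intron of CDH1, which codes for E-cadherin, stood in H1975 at 82.2, 73.2 and 66.7 CPM in control, 58.1, 61.5 and 57.4 in persister, 11.3, 8.87 and 10.6 in AZD5153 (-2.83, adjusted p = 1.08e-83) and 69.5, 62.7 and 73.8 in combo libraries. The AZD5153 libraries lay far under all others there. The region near CLDN4, a tight junction protein, went from 146, 149 and 138 CPM to 50.8, 56 and 48.4 in H1975 persisters (-1.48, adjusted p = 1.36e-68) and from 70.6, 69.1 and 73.6 to 52.4, 56.4 and 55.0 in PC9 (-0.38, adjusted p = 4.77e-07).

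Of members at lung and epithelial lineage factors, 5 of 7 fell in HCC2935 persisters (median -0.75), 2 of 5 in PC9 and 2 of 2 in H1975 (5, 1 and 1 as summed samples). In HCC2935 a region 42.9 kb from ELF3, an epithelial ETS factor, went from 93.8, 89.1 and 74.6 CPM to 31.1, 33.0 and 36.0 (-1.37, adjusted p = 1.2e-14) and to 20, 17.7 and 18.5 in the combo (-0.84 against persisters, adjusted p = 1.52e-06). GRHL1, a grainyhead factor of epithelia, went from 58.7, 45.4 and 68.0 to 31.9, 34.1 and 36.0 (-0.75) and on to 14.6, 19.4 and 15 CPM (-1.04). Each step left the groups apart. Among MYC-linked genes, all 3 members of PC9 fell in persisters, as did 14 of 21 in H1975, where 6 rose, and the 1 of HCC2935, in an intron of the cell cycle gene CCND1 (36.7, 33.7 and 28.0 to 11.9, 14.7 and 15.2 CPM, -1.25); in HCC827 1 of 11 fell. Of members at long noncoding RNAs and microRNA hosts, 7 of 12 fell and 2 rose in HCC2935, 2 of 7 fell in PC9 and 3 of 4 in H1975, and the region 3.6 kb from NEAT1 fell in HCC2935 from 87.7, 86.3 and 73.0 CPM to 49.1, 55.9 and 51.3 (-0.66). In HCC827 no member was called on the other lists, and with the replicate block 4 MYC-linked, 3 epithelial, 1 lineage and 1 noncoding RNA member fell.

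Some of the strongest sites were held in common by the lines. Between any pair of lines 26.6% to 37.1% of members coincided (a reciprocal overlap of at least 50%), and 136 positions were members in all 4. Between 399 and 500 members of a line were members in that line alone, yet 83.6% to 96.5% of members had some region in another line's table. At the 136 shared positions, 94 fell and 5 rose in PC9 persisters, 117 fell and none rose in H1975, 64 fell and 8 rose in HCC2935, and none was called in HCC827 (99 of 136 below 0; 11 fell with the block). The shares that fell, 69.1%, 86.0% and 47.1%, compare with 69.1%, 85.9% and 60.9% of all members. As summed samples 29, 59 and 19 fell. In the separate libraries of PC9, H1975 and HCC2935, 49 positions fell in all 3 and none rose in all 3, and 8 fell in all 3 as summed samples. With AZD5153, 40 fell in PC9 and 115 in H1975, and 38 fell in both; as summed samples these were 4, 87 and 4.

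The share of members called varied with the number of lines that held them; these differences were not tested. With AZD5153, 63.3% of the PC9 members found in 1 line fell, against 45.0% of those in 2 or 3 lines and 29.4% of those in 4. In HCC2935 the shares that fell in persisters were 70.2%, 54.4% and 47.4%, and in the combo against persisters 34.2%, 15.6% and 3.65%. The persister shares of PC9 (70.5%, 67.5% and 69.1%) and H1975 (86.2%, 85.6% and 86.0%) differed less between these classes in the main fit, but as summed samples they were 29.0%, 29.8% and 21.3% in PC9 and 68.9%, 60.9% and 43.4% in H1975. The AZD5153 shares of PC9 were then 30.5%, 10.8% and 2.94%, and the persister shares of HCC2935 54.1%, 31.8% and 14.6%. Combo rises ran from 43.4% to 51.4% to 67.6% in H1975 and from 23.7% to 27.6% to 45.6% in PC9, but with loess offsets they were 15.3%, 15.1% and 14.7% in H1975 and 8.35%, 8.56% and 11.8% in PC9.

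The shared position 26 kb from P3H2 fell in persisters of 3 lines. Its libraries went from 86.4, 85.6 and 87.3 CPM to 39.9, 45.3 and 42.5 in PC9 (-1.02, SE 0.07, adjusted p = 1.51e-41), from 108, 114 and 98.4 to 32.7, 33.8 and 35.2 in H1975 (-1.65, SE 0.06, adjusted p = 1.97e-68) and from 65.0, 43.4 and 72.5 to 38.7, 34.7 and 25.5 in HCC2935 (-0.87, SE 0.14, adjusted p = 1.85e-06). In HCC827 it went from 62.6, 53.4 and 85.0 to 28.0, 27.8 and 26.4 (-1.29, adjusted p = 0.232, and 0.00293 with the block). The groups did not overlap in any of the 4 lines. In the combo it stood higher than in persisters in PC9 (58.3, 62.3 and 62.4 CPM, 0.52) and H1975 (51.9, 48.6 and 52.1, 0.58), and at 13.6, 6.69 and 19.5 in HCC827.

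The shared position 6.2 kb from SDC1 fell in persisters of 3 lines and moved in opposite directions with AZD5153. It fell from 72.6, 67.3 and 72.8 CPM to 40.7, 42.6 and 48.0 in PC9 (-0.69), from 77.9, 76.5 and 77.8 to 43.7, 46.9 and 49.6 in H1975 (-0.73) and from 110, 102 and 93.4 to 46.6, 42.1 and 44.0 in HCC2935 (-1.21, SE 0.09, adjusted p = 1.52e-14). In HCC827 its change was -1.03 (adjusted p = 0.47, and 0.00413 with the block). AZD5153 gave 88.3, 80.1 and 75.2 in PC9 (0.20, adjusted p = 0.00801) and 46.4, 40.5 and 41.2 in H1975 (-0.86, adjusted p = 1.69e-28).

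The intron of EGFR that ranked first in PC9 and HCC827 fell by at most 0.33 on the log2 scale in persisters. It stood in persisters at 79.3, 88.7 and 83.5 CPM in PC9 (-0.27, SE 0.06, adjusted p = 3.53e-05), at 76.5, 87.0 and 81.8 against 105, 103 and 96.7 in H1975 (-0.31, adjusted p = 5.05e-07), at 431, 445 and 548 against 658, 507 and 630 in HCC827 (-0.33, adjusted p = 0.78, and 0.302 with the block) and at 61.8, 59.5 and 49.3 against 63.7, 47.9 and 69.3 in HCC2935 (-0.08, adjusted p = 0.572). Persister and control libraries did not overlap in PC9 and H1975 and overlapped in the other 2, although each same-numbered pair of HCC827 was lower in persisters. With AZD5153 it fell to 56, 55.4 and 51.6 in H1975 (-0.90, adjusted p = 3.1e-34) and to 90.0, 91.3 and 89.5 in PC9 (-0.16, adjusted p = 0.0206).

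The region 33 kb from CYP24A1 stood in PC9 at 87.1, 77.5 and 79.4 CPM in control and 80.7, 82.3 and 75.7 in persister libraries (-0.03, adjusted p = 0.796) and lay at 110, 110 and 108 against 103, 97.1 and 93.1 in HCC2935 (0.15, adjusted p = 0.112), but fell with AZD5153 in H1975 from 111, 110 and 103 to 47.1, 46.5 and 47.9 (-1.19, SE 0.06, adjusted p = 1.82e-49). The region at LOC105370680, whose CTCF match is printed above, went from 88.2, 95.8 and 95.3 CPM to 89.1, 98.0 and 101 in PC9 persisters (0.04, adjusted p = 0.663) and from 95.8, 107 and 102 to 63.4, 65.1 and 66.0 in HCC2935 (-0.64, adjusted p = 3.96e-08). In HCC2935 the median of all tested regions in the same 10 Mb was -1.04, lower than that of the region itself. Another position, 11.5 kb from ID1, an inhibitor of helix-loop-helix factors, changed by -0.07 in PC9 and 0.18 in HCC2935 persisters (adjusted p = 0.569 and 0.113) and by -0.26 in H1975 (adjusted p = 0.00022).

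Of the windows with an AP-1 match printed above, the NECTIN4 intron, at an adhesion molecule of epithelia, fell in H1975 persisters from 78.0, 72.1 and 69.9 CPM to 52.5, 55.5 and 53.7 (-0.44, adjusted p = 7.85e-11), and in PC9 stood at 31.6, 36.2 and 32.6 in control, 28.8, 25.6 and 31.5 in persister (adjusted p = 0.0562), 43.6, 48.2 and 40.4 in AZD5153 (0.39, adjusted p = 6.92e-05) and 45.2, 48.9 and 44.6 in combo libraries. The region near RPL3, a ribosomal protein gene, fell in persisters of PC9 (-0.32, adjusted p = 0.011), H1975 (-0.36, adjusted p = 9.53e-06) and HCC2935 (-0.50, adjusted p = 0.00276); AZD5153 raised it in PC9 (33.9, 28.3 and 27.1 to 35.9, 40.4 and 38.6 CPM, 0.38) and lowered it in H1975 (47.0, 41.8 and 39.6 to 20.9, 25.5 and 21.0, -0.95). The GOLM1 window, without a match, fell in persisters of H1975 (-0.39, adjusted p = 7.05e-08) and HCC2935 (-0.31, adjusted p = 0.00785) and stood at -0.13 in PC9 (adjusted p = 0.298).

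**Figure D5:**
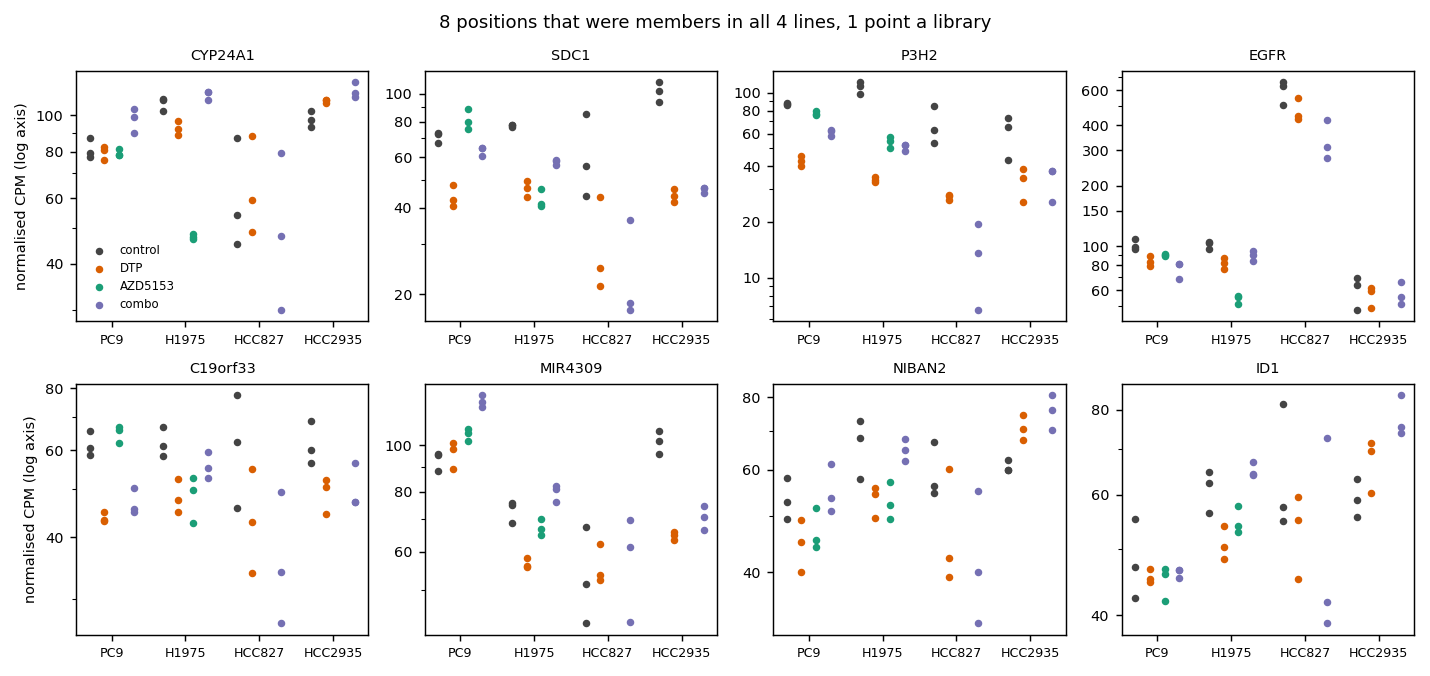
Normalised CPM in every library of each line and group at the 8 shared positions with the highest control signal in their weakest line; each point is a library. P3H2 and SDC1 drop from control to persister libraries in PC9, H1975 and HCC2935, while the EGFR intron of HCC827 stands at 275 to 658 CPM against 47.9 to 108 in the other lines.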

How the data were processed

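ATAC-seq was measured in 42 libraries of 4 lines. The deposited tables hold raw counts per region of 502 bases, which the authors' processing notes link to BWA 0.7.17, SAMtools 1.9, MACS2 2.2.6, featureCounts 2.0.0, deepTools 3.4 and ChIPseeker 1.29.1 on hg38; their parameters and the read filters were not given in the sources used here. The deposited peak lists give a fold enrichment (a ratio to background) and a −log10 q per peak and library; only overlap with members and the fold were used. The tables shared regions between the libraries of a line and differed between lines, so lines were never put in 1 fit.

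Members and gene lists were chosen with earlier results of these data known. Regions with an absolute distance to the nearest start above 3 kb were ranked by unscaled control CPM and the top 1000 kept. Each line's whole table was tested with edgeR 4.0.16 (R 4.3.3, quasi-likelihood test, TMM scaling, filterByExpr, all groups of the line in 1 fit, prior count 2), with Benjamini-Hochberg adjusted p under 0.05 over all tested regions. Printed values per library are TMM-normalised CPM, and fold changes are log2. The biological coefficient of variation of PC9, H1975, HCC827 and HCC2935 was 0.988%, 3.20%, 45.0% and 10.1%. Over the members, the chi-square of replicate pairs per degree of freedom (1 is counting noise) was 0.817 to 1.09 for PC9, 0.907 to 1.47 for H1975, 1.45 to 33.1 for HCC827 and 1.26 to 3.44 for HCC2935; replicates of PC9 and H1975 were therefore also summed to 1 sample a group and tested with the dispersion of HCC2935. Same-numbered libraries deviated together in HCC827 (r 0.257 to 0.827 over pairs of groups), where the numbers were taken to pair the libraries; in PC9 and H1975 r lay between -0.062 and 0.015, and in HCC2935 between -0.074 and 0.206. Before they were run, the fits were tried on simulated counts with known changes, at each line's coefficient of variation. The share of changes recovered is not given here, so the trial is no warrant for changes missed in HCC827, at 45.0%.

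Regions named were the 5 highest of each line, the 2 largest called rises and falls of each comparison, positions shared by 4 lines, symbols with 3 or more members and members on 7 gene lists. Library windows on chr6, chr7 and chr8 were chosen after the data were seen. Alternatives covered scaling, filter, tool (DESeq2 1.42.0, limma 3.58.1), threshold, replicate block, held-out choice of members and each library left out. Summaries used Python 3.11.15, pandas 2.3.3 and numpy 2.4.6.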

Additional observations from a re-analysis of the deposited data

Results flagged for a closer look

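At 4 positions that were members in every line, a comparison moved all libraries one way in one line and the opposite way in another; the differences between lines were not tested. At CYP24A1 the persister change was 0.154 in HCC2935 and -0.222 in H1975 (log2), a difference of 0.376; the HCC2935 change did not pass the test (adjusted p = 0.112) and became -0.21 with regional medians removed, and the H1975 change became 0.03 with loess offsets. At SDC1 the AZD5153 change was 0.197 in PC9 and -0.855 in H1975, a difference of 1.052. At P3H2 the combo against persister change was 0.518 in PC9 and 0.583 in H1975 but -1.0 in HCC827, differences of 1.518 and 1.583, with an adjusted p of 1 in HCC827. At NIBAN2 the persister change was 0.225 in HCC2935 (60, 59.9 and 62.4 to 67.6, 74.6 and 70.5 CPM) and -0.248 in PC9 and -0.31 in H1975, differences of 0.473 and 0.535; the HCC2935 change became -0.002 with regional medians removed. In HCC2935 the median of all tested regions within the same 10 Mb was 0.427 at CYP24A1 and 0.216 at NIBAN2; the part of these surroundings was not tested.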

How the results depend on the processing

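The percent of members called is given here for persister, AZD5153 and combo against persister comparisons in that order. It was 72.3, 57.3 and 50.9 in PC9, 88.1, 91.7 and 59.4 in H1975, 0.4 and 0.0 in HCC827 and 65.1 and 24.2 in HCC2935. Together with the alternatives for positions shared by 4 lines, 215 alternative values lay within 1.5 times of their main value and 37 did not. A log2 fold of at least 1 left 9.2, 6.8 and 4.5 in PC9, 32.6, 50.1 and 2.0 in H1975 and 16.2 and 4.6 in HCC2935, by construction. Summed libraries gave 28.4, 19.1 and 9.3 in PC9, 5.1 for the H1975 combo and 40.9 and 10.5 in HCC2935. DESeq2 gave 35.8 for AZD5153 in PC9, 0.7 for HCC827 persisters and 37.3 and 11.9 in HCC2935; no filter gave 39.3 and 13.3 in HCC2935. HCC827 persisters had 0.2 with library size, 1.5 with limma, 1.58 with a mean of at least 50 counts, 0.1 with regional medians removed, 0.0 with members chosen on 1 control and 13.1 with the replicate block, which gave 0.6 for the combo; the block changed the percent by over 1.5 times in no other line. Leaving out a library gave 65.9 to 69.6, 51.2 to 52.6 and 43.8 to 46.7 in PC9, 84.0 to 88.0, 87.9 to 92.5 and 45.0 to 57.3 in H1975, 0.0 to 0.3 and 0.0 in HCC827, and 52.9 to 66.0 and 15.3 to 21.1 in HCC2935, where the combo had 15.3 without persister replicate 2. The cause of these moves was not tested beyond what each setting removes. Positions shared by 4 lines numbered 52 for the top 500 and 325 for the top 2000, against 136.

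The median of the combo against persister changed sign in PC9 with library size (-0.005) and loess offsets (-0.124), and in H1975 with loess (-0.05). Of 80 named values, 60 passed the test; of these, 5 changed sign and 21 lost the call under some setting. In persisters, removing regional medians gave -0.279 at MIR1208 in H1975, 0.107 and 0.126 at EGFR and 0.249 at VOPP1 in HCC827, -0.027 at CYP24A1 in HCC827, and in HCC2935 0.097 at MICALL2, 0.235 at MIR4309, -0.21 at CYP24A1, 0.062 at EGFR, -0.002 at NIBAN2 and -0.169 at ID1. Loess gave 0.009 at PVT1 and 0.03 at CYP24A1 in H1975, and 0.018 at CYP24A1 and 0.001 at ID1 in PC9. CYP24A1 in PC9 was 0.028 with library size and 0.039 with at least 50 counts, and EGFR in HCC2935 was 0.094 without a filter and 0.086 with DESeq2. Leaving out a library gave -0.041 to 0.09 at MIR1208 in H1975, -0.08 to 0.019 at CYP24A1 and -0.158 to 0.026 at ID1 in PC9, -0.179 to 0.448 at CYP24A1 and -0.077 to 0.296 at MIR4309 in HCC827, and -0.21 to 0.06 at EGFR in HCC2935. HCC827 had both low library totals (1724680 to 4242868 counts) and the widest spread between replicates, and what each took from its calls was not tested.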
